A study of Mus musculus with 9 samples.

Results

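Hindbrains of mouse embryos that carried the d28-30 allele of Zfp423 were compared with wild-type hindbrains on embryonic day 9.5, by sequencing of their RNA. The comparison took 6 of the 9 libraries of the study, chosen by the genotype in their labels, 3 of d28-30 and 3 of wild type (wt). Of the 48587 genes in the count table, 15695 had enough counts to be tested. In d28-30 embryos exons 6 and 7 of Zfp423 are deleted, and the protein that is made lacks zinc fingers 28 to 30, per the labels. The wt embryos were littermates. A further genotype with 3 libraries, d9-20, lacks other zinc fingers of the same protein. Its libraries enter the fit and its estimate of spread, and its values are given only where the alleles are compared. All embryos were of the C57BL/6N strain and had no treatment. The labels do not give zygosity, the sex of the embryos, how many embryos went into a library, or whether replicates were separate embryos. P-values therefore measure the spread between these libraries, part of which may be technical.

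ZFP423 is a transcription factor with many zinc fingers, of which separate groups bind DNA, SMAD proteins of the BMP pathway and EBF factors. The fingers at its C-terminal end are known as the contact with EBF factors, which act in newborn neurons and other lineages. In the hindbrain the gene is known for its part in the growth of the cerebellum and of the dorsal midline. The roof plate at that midline secretes BMP and WNT ligands that pattern the dorsal neural tube, and it later gives rise to the choroid plexus, whose epithelial cells carry tufts of cilia. In these bulk samples, fewer cells of a type and less RNA per cell cannot be told apart.

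Total counts were 16903382 to 24216412 in the d28-30 libraries and 19217956 to 21657749 in the wt libraries. A count of 3 corresponded to 0.124 to 0.177 CPM (counts per 1e6 total counts) over the 9 libraries, and values near it carry a large counting error. The labelled tissue was checked against markers. Sox2, a gene of neural progenitors, was at 132.8 to 137.6 CPM in d28-30, against 123.4 to 143.8 CPM in wt, and the hindbrain genes Hoxa2 and Hoxb1 were detected in every library, while the forebrain genes Six3 and Emx2 stayed below 5 CPM. Replicate 2 of d28-30 differed most from all other libraries. Chi-square per degree of freedom between it and the other 8 libraries was 27.3 to 63.4, against 18.1 at most between other libraries, and the mitochondrial share of its counts was 2.07%, against 0.904% to 1.42%. No pair of libraries within a genotype was alike within sampling noise, with chi-square per degree of freedom of at least 4.66. Pairs across genotypes could be as close. The value was 5.021 between d28-30 replicate 3 and wt replicate 1, against 5.155 between d28-30 replicates 3 and 1. The libraries also differed in RNAs that mark sex. Xist, the RNA of the inactive X chromosome, was at 1499, 1282 and 0.354 CPM in d28-30 replicates 1, 2 and 3, against 3.44, 730.4 and 0.206 CPM in wt. The summed CPM of 4 Y-linked genes was 0.0589, 122.0 and 189.8 in d28-30, against 205.1, 63.7 and 167.6 in wt. Replicate 2 of d28-30 and replicate 2 of wt held much RNA of both kinds and cannot be assigned to 1 sex. Where these features moved with a result, their values stand beside it.

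Zfp423 itself was read as 1 count for the whole gene in each library. It was at 159.1, 171.6 and 183.0 CPM in the d28-30 libraries, against 101.2, 105.1 and 117.7 CPM in the wt libraries. Every d28-30 library was above every wt library. The gene rose by a log2 fold change of 0.67 ± 0.10 (SE), or 1.59-fold, with an adjusted p of 0.0257 in edgeR's quasi-likelihood test with Benjamini-Hochberg adjustment over all genes tested, as for every adjusted p below. The call was lost without d28-30 replicate 1 or 3, d9-20 replicate 1 or 2, or any wt library, with log2 fold changes of 0.61 to 0.73 and adjusted p up to 0.173. It was also lost with only the d28-30 and wt libraries in the fit (adjusted p = 0.0501). The table holds 1 count per gene, so the deletion could not be read from it.

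The deleted exons are shown because they define the allele. The labels do not name the transcript that numbers the exons. In the GENCODE M21 transcript Zfp423-202 (GRCm38, 8 exons, 4907 nt, minus strand of chromosome 8) the coding sequence of 3876 nt held 30 matches to a zinc finger pattern of paired cysteine and histidine codons. Pattern 28 lay within exon 6, pattern 29 ran from exon 6 into exon 7, and pattern 30 ran from exon 7 into exon 8, so 3 patterns touched the deleted exons. Capitals mark the cysteine and histidine codons in the reading frame.
Zfp423 exon 6, chr8:87687956-87688087, minus strand: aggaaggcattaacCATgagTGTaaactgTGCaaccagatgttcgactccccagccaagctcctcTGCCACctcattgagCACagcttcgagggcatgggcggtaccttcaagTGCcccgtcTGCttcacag
Zfp423 exon 7, chr8:87686429-87686544, minus strand: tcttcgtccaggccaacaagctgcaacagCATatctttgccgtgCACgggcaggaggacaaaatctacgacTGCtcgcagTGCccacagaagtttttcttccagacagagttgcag
The exons have 132 and 116 nt, together 248 nt or 5.05% of the transcript. The length of 248 nt leaves a remainder of 2 when divided by 3. Exon 8, which follows them, has 27 coding nt.

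Few genes passed the threshold between d28-30 and wt hindbrains. With 3 libraries per genotype, the other genes are not shown to be unchanged. Of the 15695 genes tested, 25 (0.159%) passed an adjusted p of 0.05, of which 21 (0.134%) were higher in d28-30 and 4 (0.0255%) were lower. With only the d28-30 and wt libraries in the fit, 12 passed. The genes that rose include Coch, Stk32a, Grem1, Wnt3 and several genes of synapses, vesicles and ion channels. Gmnc, Msx2 and Mri1 are among those that fell. Of the 25, 2 are processed pseudogenes and are only counted, and 21 are described below by function, a grouping made after their values were seen. The median log2 fold change of all genes tested was 0.00, with 7895 genes above 0 and 7800 below. The 3 d28-30 libraries lay entirely above the 3 wt libraries in 6.63% of genes and entirely below them in 6.17%, together 12.8%. These shares are the background for the gene groups.

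**Figure D1:**
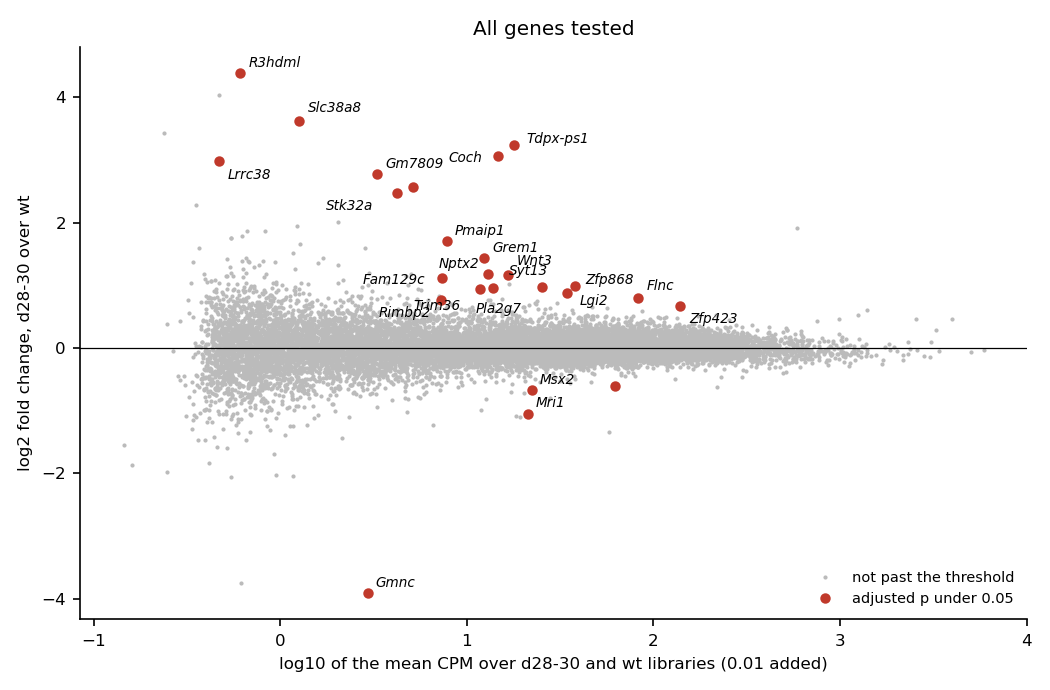
Log2 fold change of d28-30 over wt (vertical axis) against the log10 of the mean CPM of the 6 libraries plus 0.01 (horizontal axis), 1 point per gene tested. The 25 genes with an adjusted p under 0.05 are in red, 21 of them above 0 and 4 below, and most carry their name.

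Gmnc, whose protein, a relative of geminin, switches cells to multiciliated fate, had the largest fall. It was at 0.236, 0.421 and 0.398 CPM in the d28-30 libraries, against 7.71, 5.07 and 3.70 CPM in the wt libraries, from counts of 4, 10 and 9 against 168, 101 and 72. The groups did not overlap, and the wt libraries spread more widely than those of d28-30. Gmnc fell by 3.91 ± 0.34 on the log2 scale, 15.0-fold (adjusted p = 0.000995), and stayed past the threshold whichever library was left out. It lies on chromosome 16, from 26913553 to 26991652 (GRCm38, minus strand).

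Msx2, a homeobox gene, is induced by BMP signals along the dorsal midline. It was at 15.3, 17.5 and 18.6 CPM in d28-30, against 26.1, 27.5 and 28.27 CPM in wt, without overlap. Its log2 level fell by 0.67 ± 0.10, or 1.59-fold (adjusted p = 0.0226). This call was lost without d28-30 replicate 1 or 3, d9-20 replicate 1 or 2, or any wt library (adjusted p up to 0.126), and with only the d28-30 and wt libraries in the fit (adjusted p = 0.101).

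Among secreted signals, Wnt3 and Grem1 rose. Wnt3, a WNT ligand gene (chromosome 11, 103774150 to 103817957), was at 22.9, 21.8 and 24.3 CPM in d28-30, against 10.01, 9.39 and 11.5 CPM in wt. Its d28-30 libraries were all close to the same level and far above wt. It rose by 1.16 ± 0.17 on the log2 scale, 2.23-fold (adjusted p = 0.0213), a call that was lost without d28-30 replicate 1 or 3 or any wt library (adjusted p up to 0.139). Grem1 encodes a secreted protein that binds BMPs and keeps them from their receptors (chromosome 2, 113746164 to 113758646). It was at 15.4, 22.1 and 16.6 CPM in d28-30, against 5.83, 8.64 and 5.66 CPM in wt, with d28-30 replicate 2 the highest. It rose 2.70-fold, by 1.43 ± 0.20 (adjusted p = 0.0213), and missed the threshold without d28-30 replicate 3, d9-20 replicate 1, or wt replicate 1 or 3 (adjusted p up to 0.118), and with only the d28-30 and wt libraries in the fit (adjusted p = 0.0577).

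Coch, which encodes the matrix protein cochlin, known from the inner ear, had the smallest p of all genes. It was at 23.3, 31.0 and 24.5 CPM in d28-30, against 2.99, 3.47 and 2.93 CPM in wt. The wt libraries were close to each other and the highest d28-30 value was that of replicate 2. Coch rose 8.40-fold, by 3.07 ± 0.14 (adjusted p = 3.78e-06), and was past the threshold in each of the 18 alternative settings. It lies on chromosome 12, from 51593341 to 51605771. Flnc encodes filamin C, which links actin filaments in muscle. It was at 104.8, 94.1 and 116.0 CPM in d28-30, against 53.8, 69.4 and 58.4 CPM in wt, without overlap. It rose 1.73-fold, by 0.80 ± 0.11 (adjusted p = 0.0213), and missed the threshold without d28-30 replicate 1 or 3, d9-20 replicate 1 or 2, or wt replicate 1 or 3 (adjusted p up to 0.115). It was also lost with only the d28-30 and wt libraries in the fit and with the summed Y-linked CPM as a covariate (adjusted p up to 0.0737).

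Among the genes that rose were 5 of synapses, vesicles and ion channels. Of these, Nptx2 and Rimbp2 are members of the synaptic list below, and the others are not. Nptx2, a secreted pentraxin that gathers glutamate receptors at synapses, was at 18.0, 17.1 and 19.2 CPM in d28-30, against 7.85, 7.53 and 8.53 CPM in wt. It rose 2.27-fold, by 1.18 ± 0.13 (adjusted p = 0.00353), in every fit with a library left out. Lgi2 encodes a secreted leucine-rich protein of the family that acts at synapses. It was at 42.1, 47.6 and 44.8 CPM in d28-30, against 25.2, 24.4 and 23.2 CPM in wt, and rose 1.85-fold, by 0.89 ± 0.09 (adjusted p = 0.00220), also in every such fit. Syt13, a member of the synaptotagmin family of vesicle proteins, was at 34.3, 31.7 and 34.6 CPM in d28-30, against 18.4, 14.4 and 18.6 CPM in wt. It rose 1.96-fold (adjusted p = 0.0194) but missed the threshold without d28-30 replicate 1 or 3 or any wt library (adjusted p up to 0.0813). Rimbp2, a scaffold of the presynaptic active zone, rose 1.70-fold to 9.11 ± 0.662 CPM in d28-30 (SD, n = 3), against 5.36 ± 0.614 CPM in wt (adjusted p = 0.0446), and was lost without any 1 of the 9 libraries (adjusted p up to 0.240), and with only the d28-30 and wt libraries, a Y-linked or an erythroid covariate, or limma-voom (adjusted p up to 0.164). Lrrc38, an auxiliary subunit of large-conductance potassium channels, had 52 counts over the d28-30 libraries, against 6 over the wt libraries. The ratio per total count was 8.32, with an exact 95% interval of 3.57 to 23.7 that covers counting error only. Lrrc38 rose (adjusted p = 0.0180) but was lost without d28-30 replicate 1 or 3 or any wt library (adjusted p up to 0.105), and with only the d28-30 and wt libraries in the fit (adjusted p = 0.0501).

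In cell death and protein turnover, Pmaip1 and Trim36 rose. Pmaip1 encodes NOXA, a pro-apoptotic protein of the BCL2 family and a target of p53. It was at 10.2, 13.6 and 11.9 CPM in d28-30, against 3.67, 4.67 and 2.57 CPM in wt. All d28-30 libraries were above wt, and the gene rose 3.27-fold, by 1.71 ± 0.19 (adjusted p = 0.00477), in every fit with a library left out. Trim36 encodes a ubiquitin ligase. It rose 1.92-fold, to 15.4 ± 1.505 CPM in d28-30, against 8.03 ± 1.61 CPM in wt (SD over 3 libraries, adjusted p = 0.0420), and the call was lost without any 1 of the 9 libraries (adjusted p up to 0.111), with only the d28-30 and wt libraries and with the Y-linked covariate (adjusted p up to 0.147).

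Of genes of metabolism and transport, Mri1 fell and Slc38a8 and Pla2g7 rose. Mri1 encodes an enzyme of the methionine salvage pathway. It was at 15.1, 12.1 and 14.3 CPM in d28-30, against 26.4, 27.8 and 31.5 CPM in wt, without overlap. Its log2 level fell by 1.05 ± 0.11, or 2.06-fold (adjusted p = 0.00353), in every fit with a library left out. Slc38a8, which encodes an amino acid transporter, had 51, 46 and 46 counts in d28-30, against 2, 5 and 4 in wt. The ratio per total count was 12.5 (exact 95% interval 6.77 to 25.6, adjusted p = 0.0225), and the call was lost without d28-30 replicate 1 or 3 or any wt library (adjusted p up to 0.134). It was also lost with the Y-linked covariate and with limma-voom (adjusted p up to 0.0738). Pla2g7, which encodes a secreted enzyme that breaks down platelet-activating factor, rose 1.94-fold to 18.1 ± 2.16 CPM in d28-30, against 9.32 ± 1.01 CPM in wt (SD over 3 libraries, adjusted p = 0.00989), and was lost without wt replicate 2 or 3 (adjusted p up to 0.0612), and with only the d28-30 and wt libraries in the fit (adjusted p = 0.0577). Its exons overlap those of an unnamed gene model on the opposite strand over 11% of their length. The strand setting of the counting is not given in the sources used here, so reads of both may not be separated.

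Further genes that rose were Stk32a, R3hdml, Zfp868 and Fam129c. Stk32a, which encodes a serine/threonine kinase, was at 6.95, 7.41 and 6.95 CPM in d28-30, against 1.06, 1.31 and 1.49 CPM in wt, and rose 5.53-fold (adjusted p = 0.00128). R3hdml had 20, 31 and 22 counts in d28-30, against 0, 1 and 2 in wt. The ratio per total count was 23.4 with an exact 95% interval of 7.68 to 115.9 (adjusted p = 0.00614). Both passed with each library left out. Zfp868, a zinc finger gene, was at 43.4, 60.6 and 47.7 CPM in d28-30, against 29.9, 24.7 and 22.0 CPM in wt, and rose 1.98-fold (adjusted p = 0.0213). Its call was lost without d28-30 replicate 3, d9-20 replicate 1 or 2, or wt replicate 2 or 3 (adjusted p up to 0.139), and with only the d28-30 and wt libraries in the fit (adjusted p = 0.0890). Fam129c rose 2.17-fold to 10.04 ± 1.47 CPM in d28-30, against 4.604 ± 0.594 CPM in wt (adjusted p = 0.0213), and was lost without d28-30 replicate 1 or 3, d9-20 replicate 1 or 2, or any wt library (adjusted p up to 0.139). It was also lost with only the d28-30 and wt libraries in the fit and with the Y-linked covariate (adjusted p up to 0.0759). Its exons overlap those of Pgls on the same strand over 21.8% of their length.

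**Figure D2:**
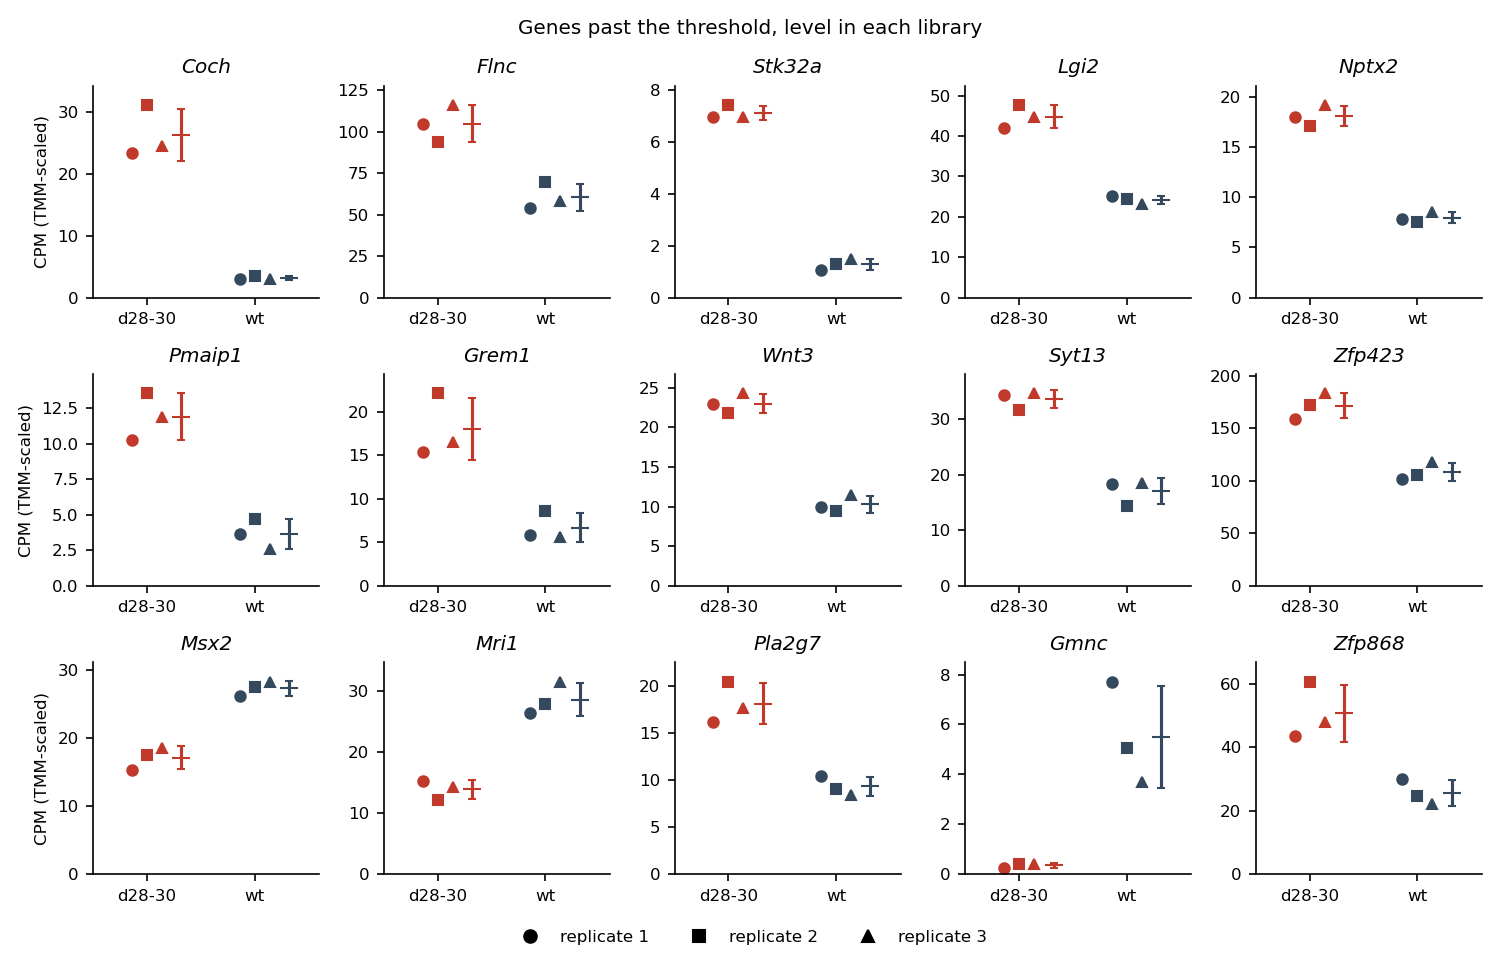
CPM (vertical axes, from 0) of 15 genes past the threshold in the 3 d28-30 libraries (red) and the 3 wt libraries (dark blue), with a marker shape per replicate and the mean ± SD beside them. In each gene the d28-30 and wt libraries do not overlap; Coch reaches 31.0 CPM in d28-30, against 3.47 CPM in wt, while Gmnc stays at 0.421 CPM or less in d28-30.

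Beyond the single genes, 60 lists of genes with a shared function, cell type or region were followed. They are described by the median log2 fold change of their tested members and by the members whose libraries did not overlap, to be read beside the background of 6.63% above and 6.17% below. Few of these members passed the threshold, and in 53 of the 60 lists the median was smaller than the range of the 3 wt libraries. Of 19 lists with a median of 0.1 or more in size, d28-30 replicate 2 was the farthest of the d28-30 libraries in 13. With 1 library left out at a time, the median of 30 of the 60 lists took the other sign in at least 1 fit. Without that library, 11.2% of genes lay above and 10.3% below wt without overlap, a setting chosen after the data were seen.

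**Figure D3:**
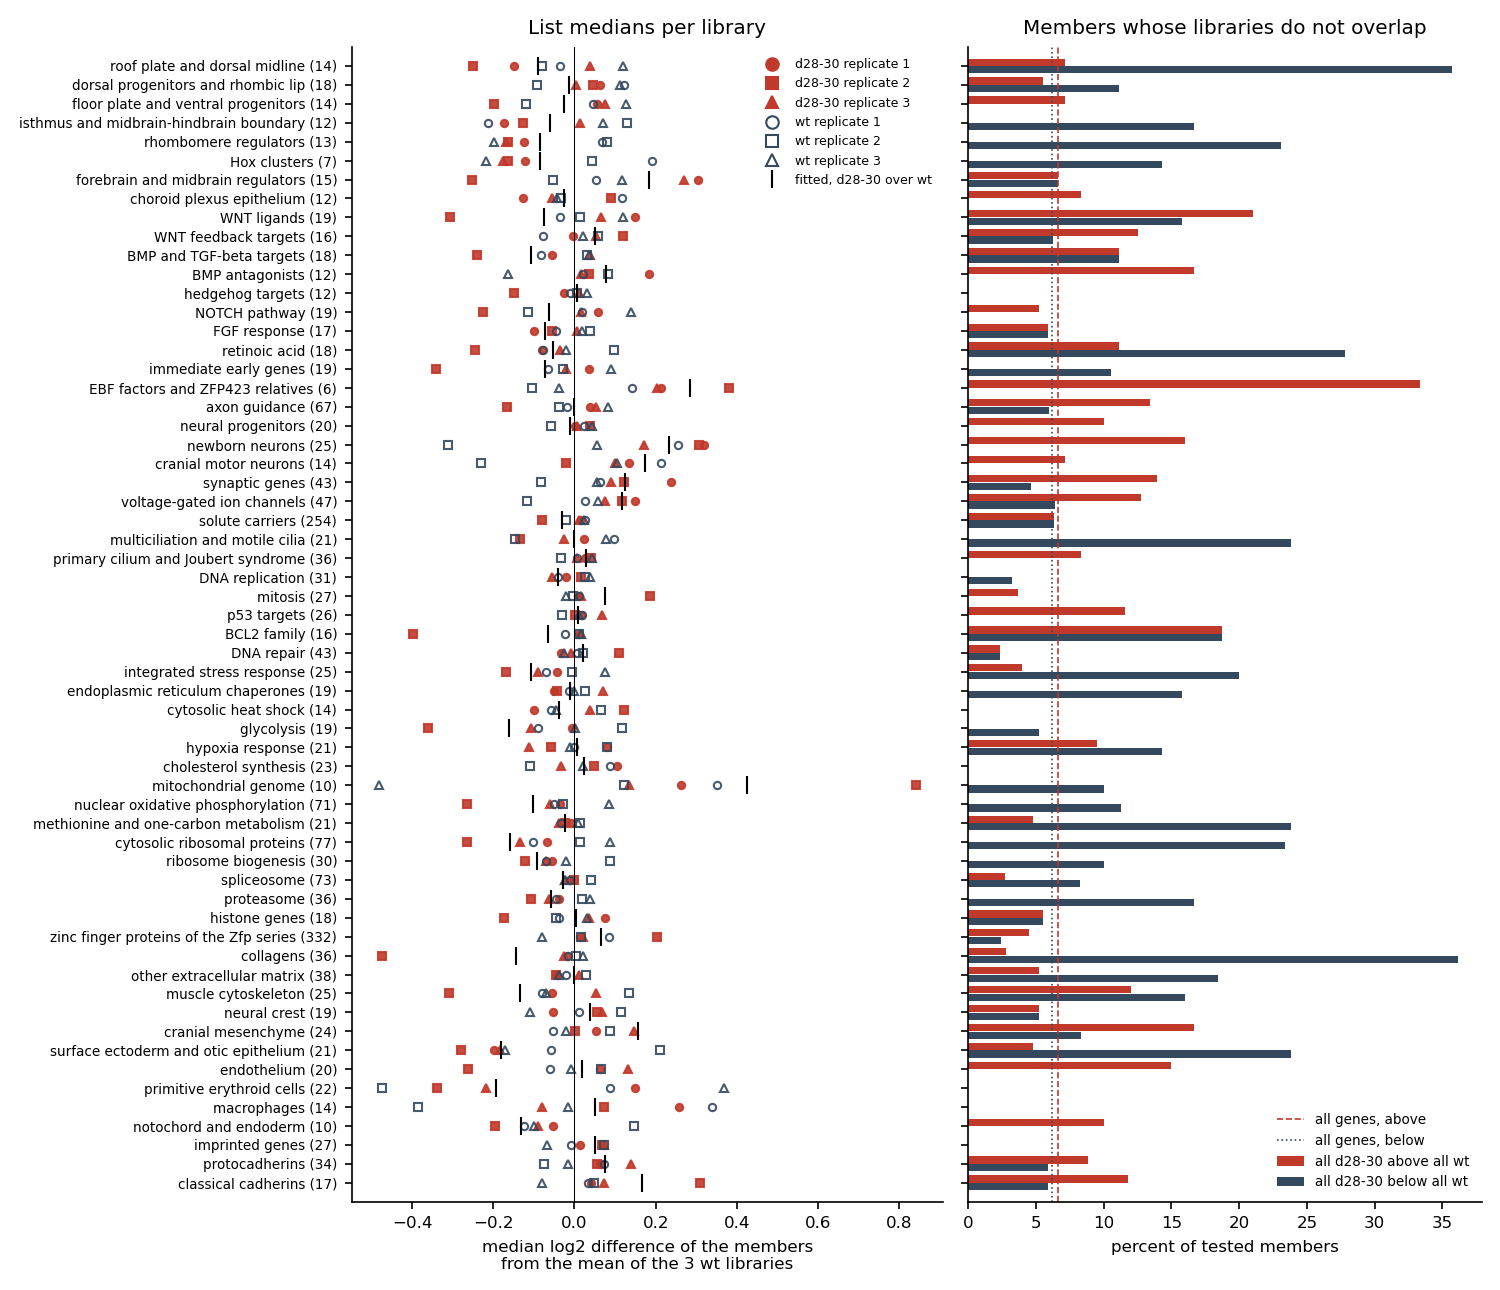
Left, median log2 difference of the tested members of each list (number in brackets) from the mean of the wt libraries, for each d28-30 library (red, filled) and wt library (dark blue, open), with the fitted median as a black tick. Right, percent of members with all d28-30 libraries above (red) or below (dark blue) all wt libraries, with dashed and dotted lines at 6.63% and 6.17% of all genes. The mitochondrial genome and the collagens show d28-30 replicate 2 far from the other libraries.

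In the roof plate and dorsal midline list, all 14 listed genes were tested, 4 lay above 0 and 10 below, and the median was -0.09. The d28-30 libraries were below wt without overlap in 5 members (35.7%) and above in 1 (7.14%). Msx2 fell, as described above. Wnt1, the WNT ligand of the dorsal midline, was at 13.96, 8.71 and 12.7 CPM in d28-30, against 20.2, 27.7 and 26.8 CPM in wt, a log2 difference of -1.09 ± 0.18 (adjusted p = 0.0527). Bmp6, a BMP ligand gene, was at 4.08 ± 0.192 CPM in d28-30, against 7.08 ± 1.39 CPM in wt (SD over 3 libraries, adjusted p = 0.163). Rspo1, which encodes an enhancer of WNT signals, was at 15.2 ± 2.13 CPM in d28-30, against 25.1 ± 4.56 CPM in wt (adjusted p = 0.368). With 1 library left out at a time the median was between -0.18 (without d28-30 replicate 3) and 0.00 (without wt replicate 3), and leaving out d28-30 replicate 2 gave -0.02, with 5 members still below wt and 2 above.

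Dorsal progenitors and the rhombic lip had no such shift, with 18 of 20 genes tested, a median of -0.01 and 8 members above 0, and with 1 member above wt without overlap and 2 (11.1%) below. Msx3, a homeodomain gene of dorsal progenitors, was at 40.7 ± 1.96 CPM in d28-30, against 53.5 ± 4.28 CPM in wt (SD over 3 libraries, log2 fold change -0.40 ± 0.09, adjusted p = 0.191). Olig3, a factor of the dorsal progenitors next to the roof plate, was at 21.8, 23.6 and 24.2 CPM in d28-30, against 33.2, 30.4 and 32.5 CPM in wt (-0.46 ± 0.12, adjusted p = 0.328). Zic1 had the opposite sign, with 155.2 ± 7.74 CPM in d28-30, against 142.0 ± 3.72 CPM in wt (adjusted p = 0.612). In the choroid plexus list, 12 of 17 genes were tested, the median was -0.03, and 1 member, the tight junction gene Cldn2, did not overlap, at 1.49 ± 0.3205 CPM in d28-30, against 0.904 ± 0.291 CPM in wt (adjusted p = 0.591). Floor plate and ventral progenitors had a median of -0.03 over 14 members, 5 of them above 0, with 1 above wt without overlap and 0 below. That member, Shh, the ligand of the floor plate, was at 33.3 ± 2.51 CPM in d28-30, against 27.9 ± 2.13 CPM in wt (adjusted p = 0.610).

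Along the length of the hindbrain, the regulators of rhombomeres lay below 0 in 11 of 13 members tested (17 listed), with a median of -0.09 and 3 members (23.1%) below wt without overlap. Egr2, which sets the identity of odd-numbered rhombomeres, was at 2.95, 3.12 and 3.32 CPM in d28-30, against 4.78, 9.59 and 4.83 CPM in wt, where replicate 2 stood highest (-1.03 ± 0.34, adjusted p = 0.480). Hoxb2, a Hox gene of the hindbrain, was at 27.2 ± 0.816 CPM in d28-30, against 31.1 ± 1.03 CPM in wt (adjusted p = 0.595). The median of the list stayed below 0 with each library left out, at -0.21 to -0.07. Its summed level was 344.4, 390.6 and 359.5 CPM in d28-30, against 397.1, 406.9 and 344.7 CPM in wt, so wt replicate 3 lay among the d28-30 libraries. Of the Hox genes, 7 of 39 were tested, with 6 below 0, 1 below wt without overlap and a median of -0.09 (-0.21 without wt replicate 3). The member below wt is again Hoxb2, which is also in the rhombomere list, so these lists are not separate sets of genes. The tested Hox genes were all from paralogue groups 1 to 3, while the other 32 did not pass the count filter. For the isthmus, 9 of 12 members lay below 0, with a median of -0.06 (-0.22 without wt replicate 1, 0.00 without wt replicate 2), and 2 (16.7%) lay below wt without overlap and 0 above. Gbx2, which sets the position of the isthmus, was at 8.07, 9.26 and 9.47 CPM in d28-30, against 11.1, 14.7 and 13.2 CPM in wt (-0.54 ± 0.15, adjusted p = 0.370), and Gbx1 at 10.6 ± 0.738 CPM in d28-30, against 13.5 ± 0.523 CPM in wt (adjusted p = 0.363). Forebrain and midbrain regulators had a median of 0.18 over 15 of 19 genes, with 11 above 0 and 1 (6.67%) without overlap in each direction, from 0.05 without d28-30 replicate 3 to 0.70 without d28-30 replicate 2. Six3, a forebrain gene, was at 0.648, 0.337 and 2.08 CPM in d28-30, against 0.321, 0.251 and 0.257 CPM in wt (adjusted p = 0.610), so the highest library carried most of the difference.

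Among WNT ligands, all 19 were tested. The d28-30 libraries were above wt without overlap in 4 (21.1%) and below in 3 (15.8%), and the median was -0.07, which was 0.04 without d28-30 replicate 2 and -0.18 without d28-30 replicate 3. Wnt3 was the member past the threshold. Wnt8a was at 0.944 ± 0.183 CPM in d28-30, against 0.345 ± 0.0585 CPM in wt (1.45 ± 0.34, adjusted p = 0.208), and Wnt9a at 9.13 ± 1.88 CPM in d28-30, against 16.0 ± 2.38 CPM in wt (-0.81 ± 0.20, adjusted p = 0.271). The feedback targets of WNT signals had a median of 0.05 over 16 of 17 genes, with 2 (12.5%) above wt without overlap and 1 (6.25%) below. Notum, which encodes an enzyme that inactivates WNT ligands, was at 17.7, 13.5 and 17.8 CPM in d28-30, against 9.28, 8.84 and 10.7 CPM in wt, without overlap (0.76 ± 0.14, adjusted p = 0.0806). Nkd1, an intracellular WNT antagonist, was at 82.5 ± 8.69 CPM in d28-30, against 101.8 ± 7.32 CPM in wt (adjusted p = 0.407), and Ccnd1, the gene of cyclin D1, at 664.8 ± 26.7 CPM in d28-30, against 569.2 ± 9.00 CPM in wt (adjusted p = 0.380).

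Targets of BMP and TGF-beta lay below 0 in 12 of 18 members (19 listed), with a median of -0.11 that became -0.03 without d28-30 replicate 2 and -0.18 without d28-30 replicate 3. Msx2 was the member that fell, and 2 members lay without overlap in each direction. Skil, a repressor induced by TGF-beta signals, was at 75.05, 97.5 and 77.8 CPM in d28-30, against 67.1, 53.1 and 57.8 CPM in wt (0.49 ± 0.11, adjusted p = 0.196). Smad9, a SMAD of the BMP pathway, was at 2.12 ± 0.238 CPM in d28-30, against 3.14 ± 0.549 CPM in wt (adjusted p = 0.458). BMP antagonists had a median of 0.08 over 12 of 14 genes (-0.02 without d28-30 replicate 1, 0.16 without wt replicate 1), with Grem1 the member that rose, and 2 (16.7%) above wt without overlap and 0 below. Twsg1, which binds BMPs, was at 139.3 ± 19.8 CPM in d28-30, against 117.2 ± 10.3 CPM in wt (adjusted p = 0.610).

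Of the retinoic acid genes, which make, break down, bind or respond to that signal, all 18 were tested and 12 lay below 0 (median -0.05, from -0.16 without d28-30 replicate 3 to -0.02 without d28-30 replicate 2). The d28-30 libraries were below wt without overlap in 5 (27.8%) and above in 2 (11.1%). Rxrg, a nuclear receptor gene, was at 2.06, 1.73 and 2.17 CPM in d28-30, against 3.67, 3.22 and 3.19 CPM in wt (-0.76 ± 0.18, adjusted p = 0.203). Cyp26b1, whose enzyme breaks down retinoic acid, was at 148.2 ± 2.74 CPM in d28-30, against 170.4 ± 2.78 CPM in wt (adjusted p = 0.595). Hedgehog targets (median 0.01 over 12 of 13 genes, with 0 members without overlap), the NOTCH pathway (-0.06 over 19) and the response to FGF (-0.07 over 17) had 1 member or fewer without overlap in either direction. The hedgehog list also holds components of the pathway, among them Boc, Smo and Sufu, so its median is not that of targets only.

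Genes of newborn neurons were above 0 in 22 of 25 members, all tested, with a median of 0.23, and 4 (16.0%) were above wt without overlap and 0 below. None passed the threshold. Elavl2, an RNA-binding protein of early neurons, was at 61.9, 82.7 and 62.6 CPM in d28-30, against 58.5, 47.6 and 46.3 CPM in wt (0.44 ± 0.12, adjusted p = 0.370). Neurod1, a factor of neuronal differentiation, was at 38.7, 55.8 and 38.4 CPM in d28-30, against 36.9, 25.5 and 25.1 CPM in wt (0.60 ± 0.18, adjusted p = 0.407). In both genes d28-30 replicate 2 was highest and wt replicate 1 was close to the other d28-30 libraries. The summed level of the list was 1360 to 1516 CPM in d28-30, against 961.4 to 1462 CPM in wt, with wt replicate 2 lowest. The median was 0.10 without wt replicate 2, 0.34 without wt replicate 1 and 0.20 without d28-30 replicate 2. Neural progenitors had a median of -0.01 over 20 members, with 2 (10%) above wt without overlap and 0 below, and their summed level was 3676 to 3791 CPM in d28-30, against 3684 to 3968 CPM in wt.

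The EBF factors and their relatives, the partners of the deleted fingers and the paralogue Zfp521, form a list of 6 that holds Zfp423 itself. All 6 lay above 0, with a median of 0.28 (0.19 without d28-30 replicate 2 or wt replicate 2, 0.44 without wt replicate 1). Zfp423 rose, and Ebf4 was at 10.9, 8.29 and 9.69 CPM in d28-30, against 7.30, 5.98 and 7.87 CPM in wt, just without overlap (0.44 ± 0.14, adjusted p = 0.457). Some of these genes are also members of the list of newborn neurons.

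Synaptic genes had a median of 0.12 over 43 of 44 genes, with 30 above 0. Nptx2 and Rimbp2 rose, and 6 members (13.95%) lay above wt without overlap and 2 (4.65%) below. Nptxr, the receptor partner of the pentraxins, was at 10.2 ± 1.24 CPM in d28-30, against 7.72 ± 0.759 CPM in wt (adjusted p = 0.466), and Gabra2, a GABA receptor subunit, at 2.26 ± 0.199 CPM in d28-30, against 1.51 ± 0.268 CPM in wt (adjusted p = 0.533). Voltage-gated ion channels had a median of 0.12 over 47 of 63 genes, with 31 above 0, and 6 (12.8%) lay above wt without overlap and 3 (6.38%) below. Kcnq3 was at 9.06 ± 2.43 CPM in d28-30, against 5.14 ± 0.706 CPM in wt (adjusted p = 0.306), Kcna2 at 3.87 ± 0.609 CPM in d28-30, against 2.22 ± 0.605 CPM in wt (adjusted p = 0.313), and Kcna1 at 3.17 ± 0.538 CPM in d28-30, against 4.65 ± 0.152 CPM in wt (adjusted p = 0.407). With 1 library left out the 2 medians stayed above 0, at 0.06 to 0.19 for synaptic genes and 0.02 to 0.21 for channels.

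Axon guidance genes, with 67 of 70 tested, had a median of 0.00 but 9 members (13.4%) above wt without overlap and 4 (5.97%) below. Epha2, an ephrin receptor gene, was at 24.6, 22.2 and 26.2 CPM in d28-30, against 13.3, 16.8 and 16.2 CPM in wt (0.66 ± 0.12, adjusted p = 0.0680). Epha8 of the same family was at 20.2 ± 3.13 CPM in d28-30, against 13.4 ± 2.19 CPM in wt (adjusted p = 0.252), and Ntng2, which encodes a netrin-related membrane protein, at 5.88 ± 1.12 CPM in d28-30, against 3.58 ± 0.0845 CPM in wt (adjusted p = 0.317). Cranial motor neurons had a median of 0.17 over 14 of 16 genes, from 0.05 without d28-30 replicate 2 to 0.32 without wt replicate 1, with 1 member without overlap, Isl2, at 3.62 ± 0.168 CPM in d28-30, against 2.95 ± 0.651 CPM in wt (adjusted p = 0.665).

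The multiciliation and motile cilia list, with 21 of 27 genes tested, had a median of 0.00, 11 members above 0 and 10 below. Gmnc fell, and 5 members (23.8%) lay below wt without overlap and 0 above. Ccno, a cyclin-like gene of centriole amplification that acts below Gmnc, had 1, 3 and 1 counts in d28-30, against 33, 11 and 26 in wt. The level was 14.6-fold lower per total count, with an exact 95% interval of 5.96 to 46.3, and the adjusted p was 0.0546. Dnaaf3, a dynein assembly factor, was at 3.71, 3.24 and 4.34 CPM in d28-30, against 5.60, 5.68 and 5.76 CPM in wt (-0.59 ± 0.17, adjusted p = 0.380), and Ccdc40, of the ciliary ruler, at 33.1 ± 1.02 CPM in d28-30, against 37.6 ± 1.27 CPM in wt (adjusted p = 0.596). With 1 library left out the median was -0.17 without wt replicate 2 and 0.11 without wt replicate 1. The genes of the primary cilium and Joubert syndrome, the ciliary disorder for which human ZNF423 is a known gene, had a median of 0.03 over 36 of 38 genes, with 3 (8.33%) above wt without overlap and 0 below. Besides Zfp423, Rpgrip1l of the transition zone was at 34.2, 50.4 and 36.5 CPM in d28-30, against 30.9, 31.6 and 25.5 CPM in wt, with d28-30 replicate 2 the highest (adjusted p = 0.407).

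Collagens had the largest share of members below wt. Of 36 tested (44 listed), 26 lay below 0 with a median of -0.14, and 13 (36.1%) lay below wt without overlap and 1 (2.78%) above. Col1a1, the main chain of fibrillar collagen, was at 36.9, 26.9 and 34.7 CPM in d28-30, against 58.3, 117.7 and 73.0 CPM in wt (-1.34 ± 0.27, adjusted p = 0.128). Its partner chain Col1a2 was at 111.9, 99.3 and 113.9 CPM in d28-30, against 147.7, 158.6 and 152.5 CPM in wt (-0.50 ± 0.13, adjusted p = 0.313). In both genes every d28-30 library was below every wt library. Col6a3, a chain of a beaded-filament collagen, was at 4.01 ± 0.444 CPM in d28-30, against 6.84 ± 0.505 CPM in wt (adjusted p = 0.370), and Col4a6, of basement membranes, at 26.3, 22.6 and 26.2 CPM in d28-30, against 32.6, 34.2 and 32.1 CPM in wt (adjusted p = 0.208). The summed level of the list was 3443, 2631 and 3491 CPM in d28-30, against 3363, 3605 and 3557 CPM in wt, so d28-30 replicate 2 alone was low in the sum. Without that library the median was -0.02, while 13 members lay below wt without overlap and 10 above.

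The rest of the extracellular matrix, 38 of 41 genes, had a median of 0.00 with 7 members (18.4%) below wt without overlap and 2 (5.26%) above. Coch was the member that rose. Tnc, the gene of tenascin C, was at 0.530, 1.14 and 0.752 CPM in d28-30, against 2.07, 1.86 and 1.90 CPM in wt (-1.23 ± 0.27, adjusted p = 0.184). Smoc2, a matricellular protein, was at 2.25 ± 0.105 CPM in d28-30, against 4.32 ± 2.09 CPM in wt (adjusted p = 0.407), and Nid1, of basement membranes, had the opposite sign, at 114.5 ± 2.15 CPM in d28-30, against 96.3 ± 5.52 CPM in wt (adjusted p = 0.555). Muscle and cytoskeleton genes had a median of -0.13 over 25 of 34 genes, and 0.00 without d28-30 replicate 2, with 3 (12%) above wt without overlap and 4 (16%) below. Flnc rose, and Des, the gene of desmin, was at 9.90, 8.38 and 10.4 CPM in d28-30, against 5.14, 7.03 and 6.07 CPM in wt (0.65 ± 0.14, adjusted p = 0.158). Lmod1 and Acta2, of smooth muscle, had the opposite sign, Lmod1 at a log2 difference of -0.96 ± 0.25 (adjusted p = 0.306) and Acta2 with 16.7 ± 2.00 CPM in d28-30, against 24.1 ± 6.46 CPM in wt (adjusted p = 0.457).

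Markers of cells around the neural tube are given beside the collagens and keratins. Cranial mesenchyme genes lay above 0 in 18 of 24 members (25 listed, median 0.16, which was 0.05 without d28-30 replicate 3 and 0.24 without d28-30 replicate 1), with 4 (16.7%) above wt without overlap and 2 (8.33%) below, and with a summed level of 597.7 to 642.7 CPM in d28-30, against 546.6 to 590.1 CPM in wt, while the collagens lay below. Six2, a mesenchymal homeodomain factor, was at 21.1 ± 1.56 CPM in d28-30, against 15.3 ± 1.65 CPM in wt (adjusted p = 0.203), and Pdgfra, the receptor of mesenchymal cells, at 86.2 ± 8.24 CPM in d28-30, against 73.0 ± 6.76 CPM in wt (adjusted p = 0.584). Surface ectoderm and otic epithelium lay below 0 in 17 of 21 members (25 listed, median -0.18), with 5 (23.8%) below wt without overlap and 1 (4.76%) above. Their summed level was 395.4 to 406.3 CPM in d28-30, against 409.3 to 523.2 CPM in wt. Krt18, a keratin of simple epithelia, was at 32.0, 31.0 and 31.5 CPM in d28-30, against 36.5, 60.6 and 35.6 CPM in wt (-0.49 ± 0.18, adjusted p = 0.564), where wt replicate 2 alone was high. Its partner Krt8 was at 31.5 ± 2.03 CPM in d28-30, against 43.0 ± 11.8 CPM in wt (adjusted p = 0.588), where wt replicate 2 was again the highest. The median was -0.34 without wt replicate 3 and -0.16 without wt replicate 2. Neural crest genes had summed levels of 536.9 to 577.8 CPM in d28-30, against 490.9 to 560.5 CPM in wt (19 members, median 0.04, 1 without overlap in each direction), endothelial genes of 499.0 to 591.4 CPM in d28-30, against 517.8 to 560.0 CPM in wt (20 of 21 genes, median 0.02, with 3, or 15%, above wt without overlap and 0 below), and primitive erythroid genes of 4816 to 6939 CPM in d28-30, against 4495 to 8276 CPM in wt (22 members, median -0.19, which was 0.04 without wt replicate 3 and -0.40 without wt replicate 2). No listed gene of these cell types, tested or not, was at 0 counts in all 6 libraries. The part of these cells in the results above was not tested.

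Among genes of protein synthesis and energy supply, 0 members of the lists of ribosomal proteins, ribosome biogenesis, the proteasome, glycolysis, oxidative phosphorylation and the mitochondrial genome passed the threshold. Cytosolic ribosomal protein genes lay below 0 in 72 of 77 tested (82 listed), with a median of -0.16, and 18 (23.4%) were below wt without overlap and 0 above. Rpl11 was at 487.2, 353.2 and 441.8 CPM in d28-30, against 492.0, 533.6 and 561.7 CPM in wt (-0.31 ± 0.11, adjusted p = 0.533), and Rps10 at 193.9 ± 38.2 CPM in d28-30, against 267.9 ± 50.5 CPM in wt (adjusted p = 0.564). The summed level was 39860, 34910 and 38130 CPM in d28-30, against 39070, 42230 and 44270 CPM in wt, so d28-30 replicate 1 and wt replicate 1 were close. Without d28-30 replicate 2 the median was -0.10 with 22 members below wt, and without wt replicate 1 it was -0.21. Ribosomal protein genes have many near-identical pseudogenes, and how reads that match several places were counted is not given in the sources used here. Ribosome biogenesis genes lay below 0 in 27 of 30 (31 listed, median -0.09, -0.04 without wt replicate 2), and Nhp2, of the small nucleolar RNA complexes, was at 104.1 ± 7.24 CPM in d28-30, against 123.1 ± 6.28 CPM in wt (adjusted p = 0.407). Proteasome genes lay below 0 in 29 of 36 (39 listed, median -0.06) with 6 (16.7%) below wt without overlap.

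All 19 glycolysis genes lay below 0, with a median of -0.16 that became -0.05 without d28-30 replicate 2 and -0.23 without d28-30 replicate 1, and 1 member, Eno2, was below wt without overlap. Eno2, the neuronal enolase, was at 2.24, 1.85 and 2.30 CPM in d28-30, against 3.31, 3.32 and 3.496 CPM in wt (-0.67 ± 0.17, adjusted p = 0.306). Nuclear genes of oxidative phosphorylation lay below 0 in 60 of 71 (median -0.10, -0.06 without d28-30 replicate 2) with 8 (11.3%) below wt without overlap, and genes of the mitochondrial genome above 0 in 8 of 10 (13 listed, median 0.43, 0.17 without d28-30 replicate 2). Of the mitochondrial genes, 0 lay above wt without overlap and 1 (10%) below, mt-Atp6, at 0.667 ± 0.0379 CPM in d28-30, against 0.959 ± 0.198 CPM in wt (adjusted p = 0.610). The summed level of the mitochondrial genes was 13100, 20740 and 12840 CPM in d28-30, against 13830, 11840 and 8751 CPM in wt, with d28-30 replicate 2 far above the others. In methionine and one-carbon metabolism the median was -0.02 over 21 of 23 genes, with Mri1 the member that fell and 5 (23.8%) below wt without overlap. Cbs, the enzyme that leads homocysteine to cysteine, had the opposite sign, at 6.19, 5.51 and 6.28 CPM in d28-30, against 3.67, 3.77 and 3.75 CPM in wt (0.68 ± 0.14, adjusted p = 0.158), and Ahcy, which makes homocysteine, was at 90.2 ± 8.58 CPM in d28-30, against 106.0 ± 3.98 CPM in wt (adjusted p = 0.509).

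Stress and cell death lists were mixed. Genes of the integrated stress response lay below 0 in 21 of 25 (26 listed), with a median of -0.11 (-0.06 without wt replicate 3), and 5 (20.0%) lay below wt without overlap and 1 (4%) above. Slc7a1 and Slc7a5, amino acid transporters of that response, were at 49.8 ± 2.19 and 92.2 ± 6.36 CPM in d28-30, against 58.3 ± 1.27 and 105.7 ± 5.59 CPM in wt (adjusted p = 0.407 and 0.584). The p53 targets had a median of 0.01 over 26 of 29 genes, with Pmaip1 the member that rose and 3 (11.5%) above wt without overlap. Ccng1, the gene of cyclin G1, was at 52.5, 63.8 and 54.0 CPM in d28-30, against 49.8, 44.1 and 45.1 CPM in wt (0.29 ± 0.09, adjusted p = 0.407). In the BCL2 family, 3 of 16 members tested (18 listed) lay above wt without overlap and 3 below. Bmf and Bik, pro-apoptotic like Pmaip1, had the opposite sign, Bik at a log2 difference of -1.24 ± 0.42 (adjusted p = 0.508) and Bmf with 67.8 ± 6.90 CPM in d28-30, against 81.5 ± 2.35 CPM in wt (adjusted p = 0.407), and the survival gene Bcl2l1 was at 59.1 ± 6.62 CPM in d28-30, against 67.8 ± 1.88 CPM in wt (adjusted p = 0.610). DNA replication (31 members, median -0.04), mitosis (27, median 0.07), DNA repair (43, median 0.02) and the spliceosome (73, median -0.03) were close to 0. Hypoxia genes had a median of 0.01 over 21, with 2 (9.52%) above wt without overlap and 3 (14.3%) below. Ndrg1 was at 13.8, 13.8 and 14.8 CPM in d28-30, against 9.23, 9.34 and 10.6 CPM in wt (0.54 ± 0.11, adjusted p = 0.156).

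**Figure D4:**
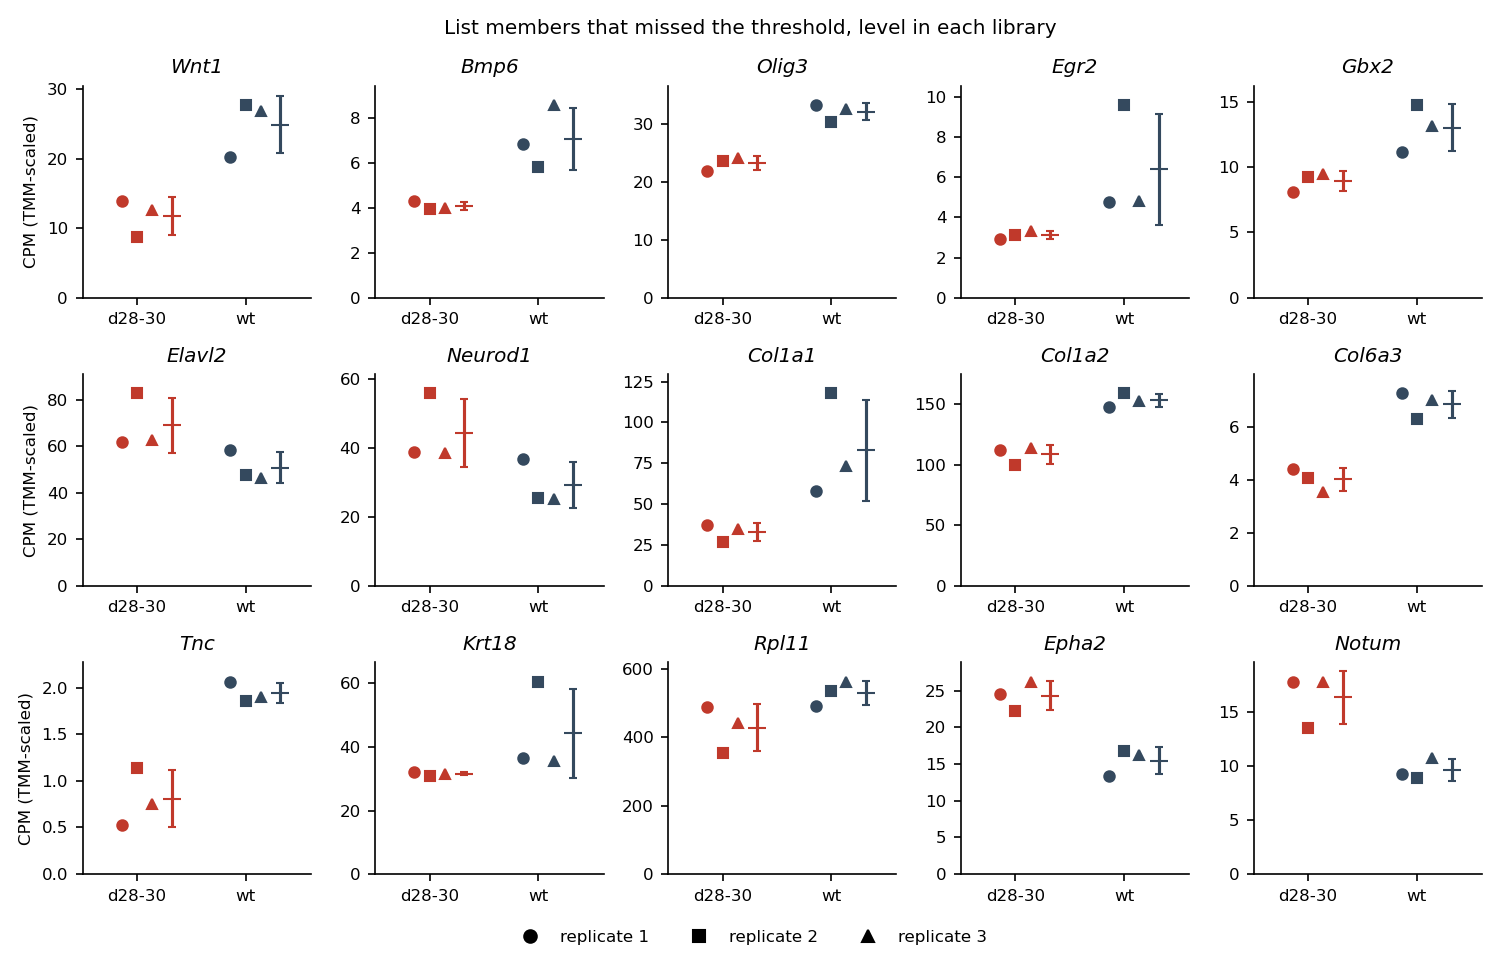
CPM (vertical axes, from 0) of 15 list members that missed the threshold, in the 3 d28-30 libraries (red) and the 3 wt libraries (dark blue), with a marker shape per replicate and the mean ± SD beside them. The libraries of the 2 genotypes do not overlap in any of these genes; wt replicate 2 is far above the other wt libraries in Egr2, Col1a1 and Krt18.

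To see which values differ between the alleles, d28-30 was set against d9-20 in the same fit. No gene passed an adjusted p of 0.05 with edgeR's quasi-likelihood test (0%), while 1504 passed an unadjusted p of 0.05. DESeq2 called 79 genes after adjustment and 1366 before, and limma-voom 0 and 1552. The d28-30 and d9-20 comparisons with wt share the wt libraries. Coch was at 26.3 ± 4.17 CPM in d28-30, against 15.1, 13.8 and 15.4 CPM in the d9-20 libraries, with a log2 difference of 0.83 ± 0.12 (adjusted p = 0.121). Stk32a was at 7.10 ± 0.265 CPM in d28-30, against 2.99, 2.62 and 4.66 CPM in d9-20 (1.05 ± 0.20, adjusted p = 0.236). Zfp868 and Fam129c were nearest to the threshold of the called genes that are not pseudogenes, with 43.4, 60.6 and 47.7 CPM of Zfp868 in d28-30, against 23.9, 24.7 and 21.5 CPM in d9-20 (1.12 ± 0.14, adjusted p = 0.0630), and 10.6, 8.38 and 11.1 CPM of Fam129c in d28-30, against 4.91, 4.69 and 3.76 CPM in d9-20 (1.17 ± 0.16, adjusted p = 0.0855). Grem1, Msx2 and Zfp423 had log2 differences of -0.05, -0.04 and 0.02 (adjusted p of 0.885 to 0.937). Among lists, macrophage genes had a median difference of 0.58 and newborn neurons of 0.55. It was 0.36 for the mitochondrial genome, 0.36 for primitive erythroid genes, 0.34 for cranial motor neurons and -0.32 for surface ectoderm and otic epithelium. Against wt, the d28-30 medians of these lists were 0.05, 0.23, 0.43, -0.19, 0.17 and -0.18 in the same order. The differences between the alleles are therefore not rises or falls of the same size against wt. These lists were chosen by the size of that difference. Measured from the mean of the wt libraries, the medians of single wt libraries ran from -0.39 to 0.34 in macrophage genes and from -0.31 to 0.26 in newborn neurons. For the mitochondrial genome, d28-30 replicate 2 was at 0.84, against 0.26 and 0.14 in d28-30 replicates 1 and 3. Overlap of d28-30 and d9-20 libraries was not counted for these lists.

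The genes past the threshold lie on 12 chromosomes. Of 15239 genes tested with a position, 784 (5.14%) are on chromosome 8, the chromosome of Zfp423, and of the 25 called genes 7 (28.0%), Zfp423 included. Of the other 6, 4 are given here with their distances from Zfp423 between annotated starts, Mri1 at 3.4 Mb, Fam129c at 16.1 Mb, Zfp868 at 18.1 Mb and Slc38a8 at 31.8 Mb. Mri1 fell and the other 3 rose. Within 20 Mb of Zfp423, a window chosen with these values known, 363 other genes were tested and 5 called. The d28-30 libraries were below wt without overlap in 54 of them (14.9%) and above in 22 (6.06%), and the median log2 fold change was -0.04. The deletion and any other difference linked to it on this chromosome cannot be told apart by the design.

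The promoters of called genes were searched for 4 short motifs on both strands, in the 250 bases before the start. RefSeq (GRCm38.p6) held a promoter for 11061 of the genes tested, among them 12 called higher and 3 called lower in d28-30. CCCNNGGG, the core of the site of EBF factors, was in 5 of the 12 promoters of higher genes (41.7%) and in 16.1% of all. GCACCC, from the site of the rat protein Roaz, the counterpart of ZFP423, was in 2 of the 12 (16.7%) and in 16.1% of all. GGCGCC, a GC-rich SMAD site, was in 2 of the 12 (16.7%) and in 17.3% of all, and CACGTG, an E-box, in 0 and in 8.26%. The 3 promoters of lower genes held 0 matches to each. Of the 5 promoters with a match to the EBF core, the 4 of the genes with the highest CPM are shown, and that of Gmnc, the gene with the largest fall, beside them. Capitals mark matches of CCCNNGGG and GCACCC on either strand. Their GC content differed, at 72.0% to 77.2% in the first 4 and 39.2% in Gmnc, and a match is a description of the letters and no site.
Coch promoter, chr12:51593091-51593340, plus strand: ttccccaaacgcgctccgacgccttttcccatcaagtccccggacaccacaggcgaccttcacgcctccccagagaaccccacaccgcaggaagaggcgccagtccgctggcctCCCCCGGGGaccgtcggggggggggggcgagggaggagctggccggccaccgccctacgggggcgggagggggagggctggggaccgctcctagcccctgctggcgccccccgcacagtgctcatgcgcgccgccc
Lgi2 promoter, chr5:52566307-52566556, minus strand: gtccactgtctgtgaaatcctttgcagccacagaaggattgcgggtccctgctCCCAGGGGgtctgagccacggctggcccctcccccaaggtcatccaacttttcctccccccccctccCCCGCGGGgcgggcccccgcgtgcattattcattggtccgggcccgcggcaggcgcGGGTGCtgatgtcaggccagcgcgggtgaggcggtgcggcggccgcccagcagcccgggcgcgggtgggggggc
Grem1 promoter, chr2:113758649-113758898, minus strand: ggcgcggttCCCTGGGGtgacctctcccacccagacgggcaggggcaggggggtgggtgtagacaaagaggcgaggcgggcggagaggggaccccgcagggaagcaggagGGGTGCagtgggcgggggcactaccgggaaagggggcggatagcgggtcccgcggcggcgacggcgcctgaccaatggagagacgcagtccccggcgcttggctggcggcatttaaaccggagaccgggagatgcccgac
Flnc promoter, chr6:29433006-29433255, plus strand: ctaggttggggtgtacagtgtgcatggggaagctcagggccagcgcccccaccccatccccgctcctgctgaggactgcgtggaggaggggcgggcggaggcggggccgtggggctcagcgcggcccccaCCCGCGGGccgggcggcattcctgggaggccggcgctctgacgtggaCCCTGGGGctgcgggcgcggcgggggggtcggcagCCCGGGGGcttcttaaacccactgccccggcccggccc
Gmnc promoter, chr16:26991653-26991902, minus strand: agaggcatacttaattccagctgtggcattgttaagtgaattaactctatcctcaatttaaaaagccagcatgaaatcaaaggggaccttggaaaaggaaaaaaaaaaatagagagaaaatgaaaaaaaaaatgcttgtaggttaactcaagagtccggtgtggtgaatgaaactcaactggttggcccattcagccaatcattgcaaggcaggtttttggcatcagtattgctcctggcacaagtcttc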

How the data were processed

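RNA of E9.5 hindbrains was sequenced as 75-nt single reads from stranded libraries made from 500 ng of RNA, per the labels. The deposited table holds whole-number read counts per gene symbol and library, made by the authors with STAR 2.5.3a and featureCounts on GRCm38, per the submitters' processing notes, which also name limma. For the annotation, the strand setting and reads with several matches, the choice is not given in the sources used here. Total counts were 16903382 to 24216412 per library, and intervals on counts cover counting error only.

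All 9 libraries were fitted in 1 model with genotype as the only factor (edgeR 4.0.16, R 4.3.3), after TMM scaling and filterByExpr, which kept 15695 of 48587 genes. The contrasts d28-30 minus wt and d28-30 minus d9-20 were tested with the quasi-likelihood test and Benjamini-Hochberg adjustment at 0.05. Log2 fold changes carry their SE, and the CPM values use the TMM factors. The biological coefficient of variation was 0.110. The procedure was tested on simulated data, which held no outlying library like d28-30 replicate 2 and no changed genes of low counts, so it does not cover these cases. The text names Zfp423, the called genes with a gene name, the members of each list past the threshold, and members with the smallest p among those without overlap of libraries, or the smallest p where there were none. The contrasts, the 63 gene lists (60 followed, 3 technical) and their members were chosen with earlier results of these data known. Positions come from GENCODE M21 and were found for 97.1% of the genes tested, and promoters come from RefSeq (GRCm38.p6). DESeq2 1.42.0, limma-voom (limma 3.58.1), other filters and scalings, covariates, a replicate block and leaving out each library were the alternatives. Some genes that these rules name are not reported here.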

Additional observations from a re-analysis of the deposited data

How the results depend on the processing

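The 25 calls became 98 without a count filter, 12 with only the d28-30 and wt libraries in the fit and 95 with DESeq2, and 10 to 33 with 1 library left out. The fewest, 10, came without wt replicate 3. Of these calls, those higher in d28-30 (21) became 66, 10 and 68 in the same order of settings, with 8 to 29 with a library left out, and those lower (4) became 32, 2 and 27, with 2 to 5. For d28-30 against d9-20 the 0 calls became 133 without a filter and 79 with DESeq2, and 0 to 4 with a library left out. Lists with a median of 0.1 or more numbered 9 (6 to 14 with a library left out), and those with -0.1 or less 10 (6 to 19). Over the called genes, 334 gene and setting pairs kept their direction and their side of the threshold, 114 lost the threshold and 0 reversed. Coch, Gmnc, Stk32a, Lgi2, Nptx2, Mri1 and Pmaip1 were among the genes that passed in all 18 settings. No scaling moved the median of all genes by over 0.1. The count of 3 limits values under 0.177 CPM.

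With the replicate number as a block the calls were 48, of which 36 were higher and 12 lower, and 2 for d28-30 against d9-20. The numbers share no stated animal, litter or day. Deviations of same-numbered d28-30 and wt libraries had correlations of -0.21, 0.20 and 0.24 across genes, so the block was not taken as pairing.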

Other observations

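Cell adhesion genes lay on both sides of 0. Classical cadherins had a median log2 fold change of 0.17 in d28-30 over wt (17 of 23 genes tested, 12 above 0), which was 0.09 without d28-30 replicate 2 and 0.21 without d28-30 replicate 3. Cdh13, a cadherin without a transmembrane part, was at 3.68 ± 0.164 CPM in d28-30, against 2.31 ± 0.380 CPM in wt (SD, n = 3, edgeR adjusted p = 0.400), and Cdh2, the neural cadherin, at 273.1 ± 30.5 CPM in d28-30, against 240.9 ± 8.53 CPM in wt (edgeR adjusted p = 0.610). Of the cadherins, 2 (11.8%) lay above wt without overlap and 1 (5.88%) below. The latter, Cdh22, was at 4.42 ± 0.690 CPM in d28-30, against 5.86 ± 1.21 CPM in wt (edgeR adjusted p = 0.610). Protocadherins had a median of 0.07 over 34 of 67 genes, with 19 above 0 and 15 below. The d28-30 libraries were above wt without overlap in 3 (8.82%) and below in 2 (5.88%). Pcdh20 was at 1.54 ± 0.434 CPM in d28-30, against 0.818 ± 0.0607 CPM in wt (edgeR adjusted p = 0.508). Pcdhgb4 had the opposite sign, at 2.996 ± 0.110 CPM in d28-30, against 3.57 ± 0.121 CPM in wt (edgeR adjusted p = 0.666).

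Zinc finger genes of the Zfp series, 332 of 372 tested, had a median of 0.07, which was 0.01 without d28-30 replicate 2 and 0.11 without d28-30 replicate 3. Zfp423 and Zfp868 were the members past the threshold, and 15 (4.52%) lay above wt without overlap and 8 (2.41%) below. Among solute carriers, with 254 of 361 tested and a median of -0.03, Slc38a8 passed the threshold and 6.30% lay without overlap in each direction. Slc25a4, the mitochondrial carrier of ADP and ATP, was at 274.8 ± 30.7 CPM in d28-30, against 355.0 ± 6.73 CPM in wt (edgeR adjusted p = 0.191).

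Endoplasmic reticulum chaperones had a median of -0.01 over 19 genes, with 3 members below wt without overlap. Hspa5, the chaperone BiP, was at 989.1 ± 42.9 CPM in d28-30, against 1084 ± 3.13 CPM in wt (edgeR adjusted p = 0.610). Immediate early genes had a median of -0.07 over 19 of 22 genes, and Myc was at 34.9 ± 2.73 CPM in d28-30, against 41.7 ± 2.31 CPM in wt (edgeR adjusted p = 0.504). Histone genes (18 of 84 tested, median 0.00), cytosolic heat shock genes (14 of 15, -0.04), cholesterol synthesis (23, 0.02), imprinted genes (27 of 29, 0.05), macrophage genes (14 of 18, 0.05) and notochord and endoderm genes (10 of 18, -0.13, which was 0.00 without wt replicate 2 and -0.31 without wt replicate 1) had 1 member or fewer without overlap in either direction. Genes that differ between C57BL/6 substrains had a median of 0.15 over 6 of 7 members, with 0 members without overlap.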
